A study of Mus musculus with 5 samples.

Results

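Mitochondrial ribosomal protein genes were taken as all genes of the deposited table whose symbol starts with Mrpl or Mrps followed by a digit. The rule found 79 of 17015 genes, of which 50 carry the large-subunit symbol Mrpl and 29 the small-subunit symbol Mrps. RNA-seq was performed on the tibialis anterior (TA), a fast-twitch leg muscle, of sedentary male mice 8 weeks of age. The WT control group comprised 3 libraries from littermates with loxP sites around the coding exon of Nrip1 (Nrip1 fl/fl) and no Cre, and the skmNrip1-/- group comprised 2 libraries from mice of the same floxed line that also carry myogenin-Cre, which acts in the skeletal muscle lineage and not in the other cells of the muscle. The floxed line was C57BL/6J and was crossed with C57BL/6JN mice that carry the Cre. Apart from pentobarbital anaesthesia before tissue removal, no agent is described for either group. Nrip1 encodes RIP140, a nuclear receptor corepressor known to restrain genes of oxidative metabolism.

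The mitochondrial ribosome translates the 13 proteins encoded by mitochondrial DNA (mtDNA), all of them subunits of respiratory chain complexes or of ATP synthase. Its rRNAs are transcribed from mtDNA, whereas all of its proteins are encoded in the nucleus, made in the cytosol and imported. Some of the proteins have homologs in bacterial ribosomes, and others are found in mitochondrial ribosomes only. Skeletal muscle depends on this machinery for its oxidative capacity.

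The FPKM of Nrip1, the target of the deletion, was higher in the libraries labelled skmNrip1-/-. The 3 WT control values of Nrip1 were 4.64, 7.69 and 6.55 FPKM (fragments per kilobase of transcript, scaled for sequencing depth), and its values in the libraries labelled skmNrip1-/- were 25.3 and 22.5 FPKM, a log2 difference of 1.94 ± 0.21 (SE; limma, adjusted p = 0.0261). The call was lost without WT control 3, without either library labelled skmNrip1-/-, without the eBayes trend and with a replicate block, where the difference was 1.86 to 2.02. The groups did not overlap. The value is one per gene and does not separate the deleted exon from the others, so it does not measure the deletion itself. For validation of this mouse line, the paper presents Nrip1 expression and a RIP140 western blot of gastrocnemius and heart. The label was kept as a name only: every direction below is that of the libraries labelled skmNrip1-/- relative to WT control. FPKM sums ranged from 969144 to 1288038 per library, and the depths relative to WT control 1, read from the smallest steps of low genes, ranged from 0.818 to 1.11. The 13 mtDNA-encoded mRNAs made up 45.4% to 50.7% of the FPKM sum in WT control and 58.6% and 60.9% in the libraries labelled skmNrip1-/-. Markers of the skeletal muscle fibre were abundant in all libraries: the summed level of Acta1, Ckm, Myh4, Myh1 and Actn3 was 42788 to 53676 FPKM in WT control and 36851 to 38258 FPKM in the libraries labelled skmNrip1-/-, with 3 of the 5 below every WT control library and none called. The summed level of the 3 blood markers was 284 to 428 FPKM in WT control and 456 to 561 FPKM in the other group, with 2 of the 3 above every WT control library. The heart marker found in the table, Myh6, was at 1.78 to 2.71 FPKM in WT control and at 0.866 and 1.64 FPKM in the other group. The slow-fibre marker sum was 1114 FPKM in WT control 3, against 236 and 346 FPKM in the other WT control libraries and 380 and 416 FPKM in the libraries labelled skmNrip1-/-. The marker sums of adipocytes, endothelium, fibroblasts, macrophages, B cells and Schwann cells overlapped between the groups, no marker found in the table was at 0 in every library, and the part of these differences in the results below was not tested. In bulk muscle, a change in the number of cells of a type and a change in RNA per cell cannot be told apart.

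All 79 members were expressed and passed the minimum mean of 0.5 FPKM, and 78 of them are protein coding in GENCODE M21 (mouse build GRCm38). The remaining member, Mrpl23-ps1, is a processed pseudogene. The members lie on 17 chromosomes. Of the 78 coding members, 23 (29.5%) have the start of another coding gene within 1000 bases in head-to-head orientation, compared with 11.1% of the 15705 coding genes of the table. Promoter windows from 250 bases before to 50 bases after the start (RefSeq, GRCm38.p6) were matched for 69 members and searched on both strands for motifs of factors known for nuclear genes of mitochondrial function. Some genes have more than 1 window, and a gene was counted when any of its windows held the motif. The ETS-type motif CCGGAAG, the kind bound by GABPA (also called NRF-2), was found for 26 of 69 members (37.7%). It was found for 20.3% of the 9205 tested genes with a window. The palindromic motif of nuclear respiratory factor 1 (NRF1) was found for 13 members (18.8%, compared with 11.8%) and the YY1 motif AAGATGGCG for 8 (11.6%, compared with 3.69%). The ERR motif AAGGTCA, to which oestrogen-related receptors bind, was found for 4 (5.80%, compared with 3.98%). A match says only that the letters are present.

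Windows are shown for the member with the largest difference (Mrpl1), for members with large differences and a match (Mrps9, Mrpl3), and for Mrps11, whose promoter window overlaps that of Mrpl46. Capitals mark the motif letters on either strand. Mrpl1 (chr5:96209865-96210164, plus strand) held none of the 4 motifs, Mrps9 (chr1:42850983-42851282, plus strand) held the NRF1 motif, and Mrpl3 (chr9:105053018-105053317, plus strand) held the ETS-type motif. Mrps11 (chr7:78782881-78783180, plus strand) held the YY1 motif, and Mrpl46 lies on the minus strand with a window (chr7:78783040-78783339) that overlaps that of Mrps11 and held no match.
Mrpl1: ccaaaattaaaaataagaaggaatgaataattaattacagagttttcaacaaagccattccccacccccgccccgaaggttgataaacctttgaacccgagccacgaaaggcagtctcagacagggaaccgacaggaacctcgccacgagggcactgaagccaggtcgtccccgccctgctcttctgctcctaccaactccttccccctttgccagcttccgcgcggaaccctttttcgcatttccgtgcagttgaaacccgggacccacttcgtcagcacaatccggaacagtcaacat
Mrps9: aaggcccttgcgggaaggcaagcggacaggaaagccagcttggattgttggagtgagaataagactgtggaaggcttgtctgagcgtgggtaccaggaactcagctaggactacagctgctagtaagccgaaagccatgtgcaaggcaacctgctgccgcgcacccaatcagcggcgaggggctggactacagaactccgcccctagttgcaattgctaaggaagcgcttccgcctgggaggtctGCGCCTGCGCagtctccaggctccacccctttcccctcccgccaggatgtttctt
Mrpl3: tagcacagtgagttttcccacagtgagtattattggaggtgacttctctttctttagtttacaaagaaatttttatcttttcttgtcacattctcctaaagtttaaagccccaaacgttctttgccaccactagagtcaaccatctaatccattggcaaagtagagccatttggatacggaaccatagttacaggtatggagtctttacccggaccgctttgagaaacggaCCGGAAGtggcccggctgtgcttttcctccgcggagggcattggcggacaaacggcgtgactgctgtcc
Mrps11: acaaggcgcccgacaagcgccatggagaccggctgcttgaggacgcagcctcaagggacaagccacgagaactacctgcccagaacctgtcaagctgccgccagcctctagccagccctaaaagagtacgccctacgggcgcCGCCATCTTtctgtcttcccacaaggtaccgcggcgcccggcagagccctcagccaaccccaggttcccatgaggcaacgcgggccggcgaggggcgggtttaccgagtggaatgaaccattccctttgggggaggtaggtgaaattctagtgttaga

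To determine whether the mRNA levels of mitochondrial ribosomal proteins differed between the groups, each member was tested with limma on log2(FPKM + 0.1), with p-values adjusted over all 12148 genes tested. No member passed the thresholds of an adjusted p of 0.05 and a fold change of 1.2 in either direction. Over all genes tested, 45 were called higher (0.37%) and 10 lower (0.0823%). The smallest adjusted p of a member was 0.110, for Mrpl1. At an unadjusted p of 0.05, 12 members were higher (15.2%, compared with 6.57% of all genes tested) and 1 was lower (1.27%, compared with 5.33% of all genes tested). The count of 12 fell to 7 without WT control 3, to 2 without skmNrip1-/- 1 and to 7 without skmNrip1-/- 2, and the count of 1 became 5 without WT control 2. After rescaling to TPM (each value as a share of the FPKM sum of the library), 0 members were higher and 19 lower at that p. Lower values were general on that scale, with a median of -0.29 and 1492 of 11913 genes tested above 0. The share of all genes at that p on the TPM scale is not given here.

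The members as a whole sat slightly above WT control on the deposited scale. The log2 difference was above 0 for 54 of 79 members (68.4%, compared with 49.9% of all genes tested), with a median of 0.08 for the members and -0.00054 for all genes tested. Both libraries labelled skmNrip1-/- were above all 3 WT control libraries for 21 members (26.6%, compared with 15.8% of all genes tested), and both were below for 1 member (1.27%, compared with 14.4% of all genes tested). The direction depended on the scale. After rescaling to TPM the larger mtDNA share lowers every nuclear gene. There the median of all genes tested was -0.29, that of the members was -0.22, and 15 of 79 members were above 0. Of all 11913 genes tested on that scale, 1492 were above 0. Relative to all genes the members therefore sat above on each of these scales, by 0.08 or less.

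**Figure D1:**
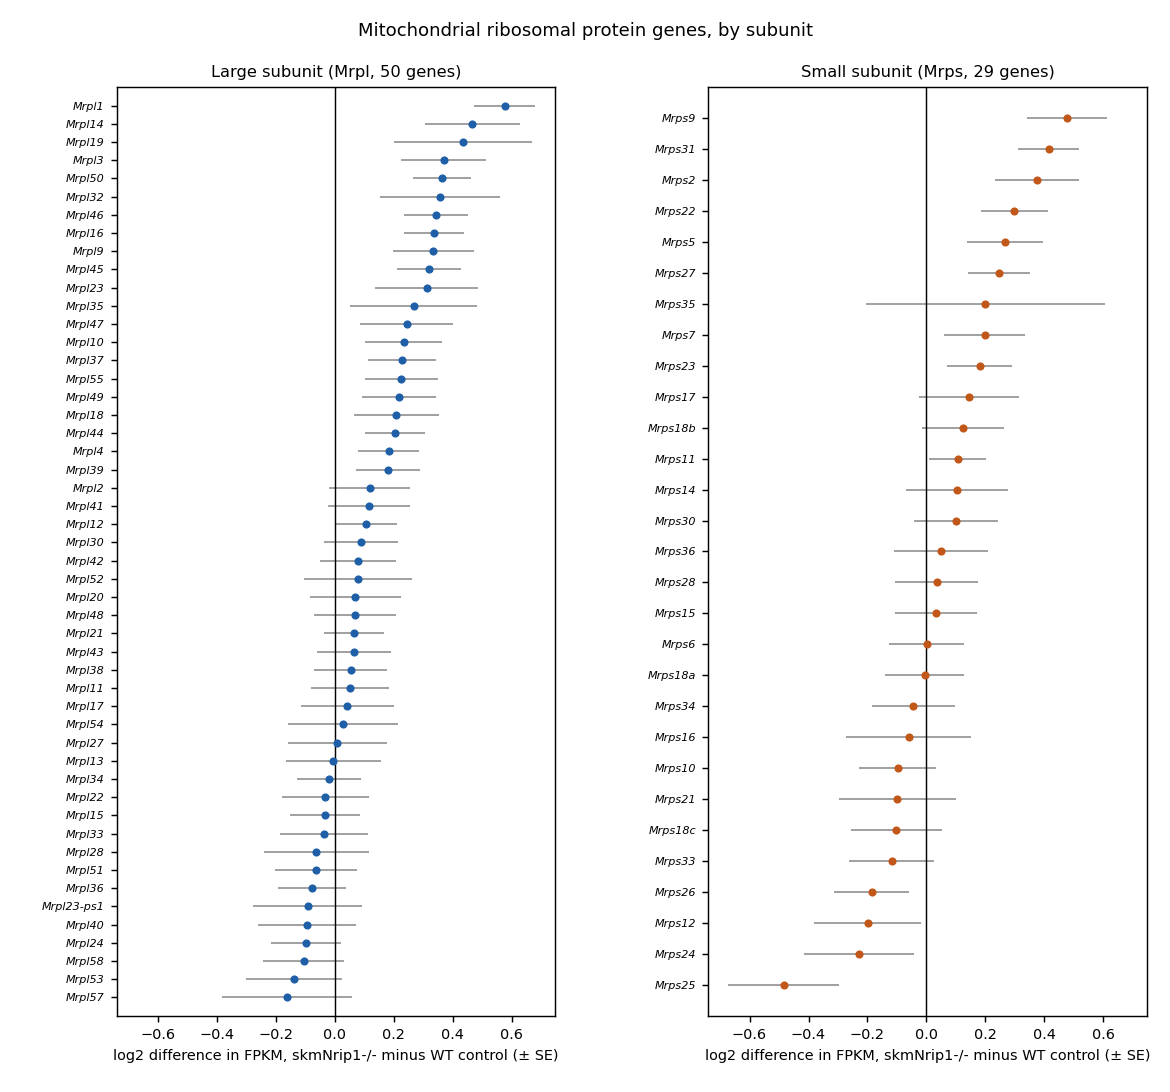
Log2 difference in FPKM (libraries labelled skmNrip1-/- minus WT control, points, with SE) for each of the 50 Mrpl genes (left) and 29 Mrps genes (right), ordered by value. Values run from -0.48 for Mrps25 to 0.58 for Mrpl1, with 54 of 79 above 0. After rescaling to TPM 15 of 79 are above 0, compared with 1492 of 11913 genes tested.

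In the large subunit, Mrpl1 had the largest difference. Mrpl1, a protein of the flexible stalk next to the tRNA exit site, was at 10.8, 11.2 and 10.2 FPKM in WT control and at 16.3 and 15.7 FPKM in the libraries labelled skmNrip1-/-. Both groups were tight and did not overlap, and the log2 difference was 0.58 ± 0.10 (SE; 95% interval 0.33 to 0.82; limma, adjusted p = 0.110). Mrpl50, a mitochondria-specific protein whose gene faces Zfp189 head to head, was also tight, at 23.8, 23.6 and 22.9 FPKM in WT control and 31.3 and 29.1 FPKM in the other group (log2 difference 0.36 ± 0.10, adjusted p = 0.244). Mrpl3, which lies near the peptidyl transferase centre, was at 48.3, 50.1 and 41.9 FPKM in WT control and 68.1 and 53.2 FPKM in the other group. The lower library labelled skmNrip1-/- was close to the highest WT control library, and the log2 difference was 0.37 ± 0.14 (adjusted p = 0.391).

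Mrpl14, a conserved protein on the interface with the small subunit, was among the most abundant members. It was at 133, 95.9 and 121 FPKM in WT control and at 170 and 150 FPKM in the libraries labelled skmNrip1-/- (log2 difference 0.47 ± 0.16, adjusted p = 0.332). The groups did not overlap although the WT control libraries spread widely. Mrpl19, the lowest of the large-subunit members, was at 5.95, 4.47 and 3.73 FPKM in WT control and at 7.48 and 5.29 FPKM in the other group, and the groups overlapped (0.43 ± 0.23, adjusted p = 0.543). Of the 5000 bases of its annotated transcript, 1967 also lie in an antisense gene, Gcfc2, and reads of the 2 genes cannot be told apart without strand.

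At the other end of the large subunit the groups overlapped for every member named here. Mrpl57 was at 32.96, 20.3 and 32.3 FPKM in WT control and at 26.1 and 23.6 FPKM in the libraries labelled skmNrip1-/- (log2 difference -0.16 ± 0.22). Mrpl53, whose annotated bases are all shared with the same-strand gene Gm42688, had a difference of -0.14 ± 0.16. Mrpl58, also known as ICT1, a peptidyl-tRNA hydrolase that became part of the large subunit, had a difference of -0.11 ± 0.14, and Mrpl24 one of -0.10 ± 0.12. Of the 1339 bases of the annotated Mrpl24 transcript, 454 are shared with the antisense gene Rrnad1. The adjusted p of Mrpl57, Mrpl53, Mrpl58 and Mrpl24 ranged from 0.808 to 0.836. Of the stalk that recruits translation factors, only Mrpl12 (0.10 ± 0.10) and Mrpl11, at its base (0.05 ± 0.13), are named here. Mrpl44, which carries a ribonuclease III-like fold, was at 18.9, 18.6 and 18.1 FPKM in WT control and 22.5 and 20.2 FPKM in the other group; it did not overlap and did not pass the test (0.20 ± 0.10, adjusted p = 0.509).

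The small subunit held the member with the lowest difference as well as several high ones. Mrps9, whose tail reaches the decoding site, was at 29.6, 27.3 and 22.8 FPKM in WT control and at 38.0 and 35.6 FPKM in the libraries labelled skmNrip1-/- (log2 difference 0.48 ± 0.14, 95% interval 0.15 to 0.80, adjusted p = 0.259). Mrps31, a mitochondria-specific protein, was at 19.2, 20.3 and 17.9 FPKM in WT control and at 25.6 and 25.5 FPKM in the other group (0.41 ± 0.10, 95% interval 0.17 to 0.66, adjusted p = 0.213). Neither gene overlapped between the groups. Mrps2, a conserved protein and the lowest member of the small subunit by level, had a difference of 0.38 ± 0.14 (adjusted p = 0.375), and Mrps22, a mitochondria-specific protein, one of 0.30 ± 0.11 (adjusted p = 0.375); both were above every WT control library in both skmNrip1-/- libraries.

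Mrps25, another mitochondria-specific protein, was the only member with both libraries labelled skmNrip1-/- below all WT control libraries. It was at 20.0, 12.9 and 16.8 FPKM in WT control and at 11.5 and 11.8 FPKM in the other group (log2 difference -0.48 ± 0.19, 95% interval -0.93 to -0.03, adjusted p = 0.386). The lowest WT control library was close to the skmNrip1-/- libraries, and of the 6073 bases of the annotated Mrps25 transcript 3533 are shared with the antisense gene Nr2c2 and 2070 match the pseudogene Gm42933. Nr2c2 itself was at 2.32, 3.57 and 3.22 FPKM in WT control and 3.29 and 3.09 FPKM in the other group. Mrps24 (-0.23 ± 0.19), Mrps12 (-0.20 ± 0.18) and Mrps26 (-0.19 ± 0.13) followed, and in all 3 the groups overlapped. Mrps12, a conserved protein of the decoding centre whose gene faces the mitochondrial seryl-tRNA synthetase gene Sars2, was at 40.2, 29.5 and 36.7 FPKM in WT control and 35.5 and 26.4 FPKM in the libraries labelled skmNrip1-/-.

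**Figure D2:**
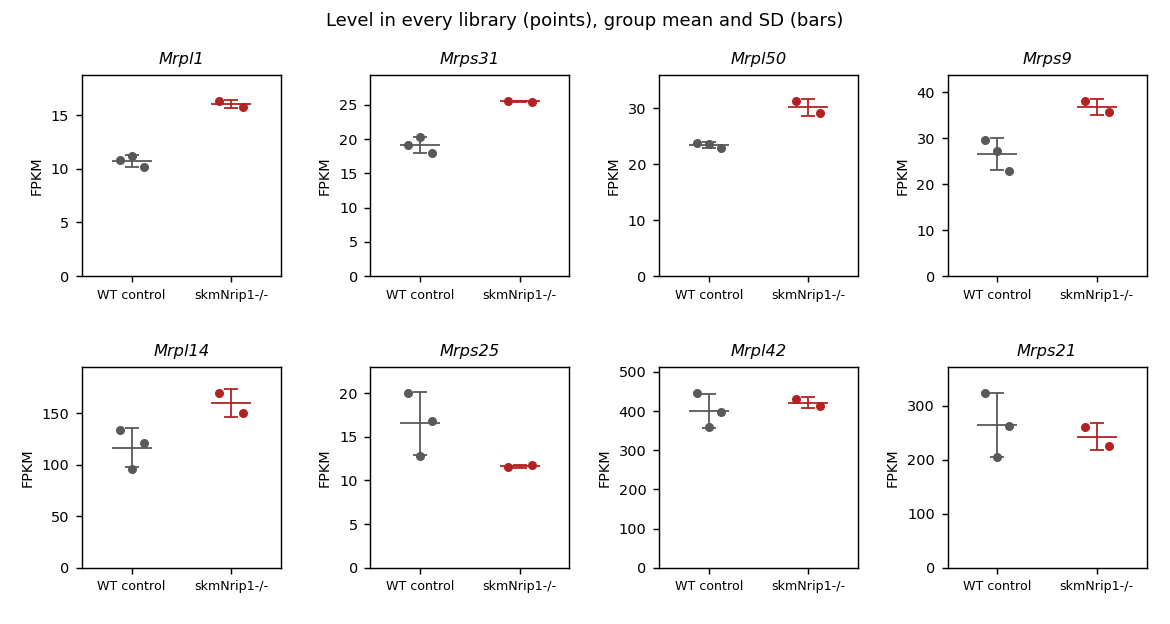
FPKM of 8 members in each library (points), with the group mean and SD (bars), for WT control (3 libraries) and the libraries labelled skmNrip1-/- (2 libraries); each vertical axis starts at 0. The groups do not overlap for Mrpl1, Mrps31, Mrpl50, Mrps9, Mrpl14 and Mrps25, and they overlap for the abundant Mrpl42 and Mrps21.

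The levels of the members spanned a wide range, and the most abundant member of each subunit had a difference near 0. Mrpl42, a mitochondria-specific protein, was the most abundant of all at 446, 359 and 397 FPKM in WT control and 432 and 412 FPKM in the other group. The groups overlapped, with a log2 difference of 0.08 ± 0.13 and a 95% interval of -0.23 to 0.39. Mrps21, a conserved protein and the most abundant of the small subunit, was at 324, 205 and 262 FPKM in WT control and 260 and 225 FPKM in the other group (-0.10 ± 0.20). Mrps34 (77.2 FPKM over all libraries), a mitochondria-specific protein, had a difference of -0.04 ± 0.14. Of the 918 bases of its annotated transcript, 504 also lie in the antisense gene Mapk8ip3. The lowest members other than Mrpl19 and Mrps2 were Mrpl23 and Mrpl39 in the large subunit and Mrps35 and Mrps30 in the small subunit. Mrps35 spread more than any other of these within WT control, at 12.2, 8.74 and 4.23 FPKM, against 8.08 and 9.63 FPKM in the libraries labelled skmNrip1-/-. Mrpl39, by contrast, was at 11.25, 11.94 and 12.67 FPKM in WT control and at 13.05 and 14.04 FPKM in the other group, without overlap (0.18 ± 0.11). The mean FPKM over all libraries ran from 5.38 to 409 in the large subunit, with a median of 40.9, and from 8.42 to 255 in the small subunit, with a median of 34.1.

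Mrpl23 and its pseudogene are listed apart although their transcripts are nearly identical in sequence. They match over 540 bases at 100% identity. Mrpl23, which lines the exit of the peptide tunnel, was at 8.88, 7.57 and 6.12 FPKM in WT control and 8.59 and 9.96 FPKM in the other group, whereas Mrpl23-ps1 was at 149, 101 and 144 FPKM and at 126 and 116 FPKM. The pseudogene was listed 15.5 times higher than the gene by mean FPKM. Their sum, 158, 108 and 150 FPKM in WT control and 135 and 126 FPKM in the libraries labelled skmNrip1-/-, differed by -0.07 on the log2 scale, so that the value of 0.31 for Mrpl23 alone is uncertain. In all, 18 members have a pseudogene copy that matches over at least 200 bases at 95% identity, and this is the only copy listed in the table.

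The large and small subunits were then compared. The median log2 difference was 0.08 for the 50 Mrpl genes and 0.05 for the 29 Mrps genes, a gap of 0.03. After rescaling to TPM the medians were -0.22 and -0.25, and the gap was 0.03 again. Relative to the WT control mean, the gap was -0.023, 0.053 and -0.0091 in WT control 1, 2 and 3, a range that holds 0.03. Both subunits had like shares of members with no overlap and higher in the libraries labelled skmNrip1-/-, 13 of 50 (26.0%) and 8 of 29 (27.6%), compared with 15.8% of all genes tested. Lower without overlap were 0 of 50 and 1 of 29, compared with 14.4% of all genes tested. The difference of the mean log2 FPKM of large- and small-subunit members within a library was 0.256, 0.281 and 0.283 in WT control and 0.361 and 0.323 in the libraries labelled skmNrip1-/-; the groups did not overlap. The ratio of the median FPKM of the subunits, large over small, did overlap, at 1.12, 1.24 and 1.16 in WT control and 1.153 and 1.34 in the other group. No test was made of either score over the members. Both scores group the members by symbol, include the pseudogene Mrpl23-ps1 and were not computed by structure. Some symbols do not name the subunit in which the protein sits. Mrps18a and Mrps30 belong to the large subunit, and Mrps36 is a component of the oxoglutarate dehydrogenase complex rather than of the ribosome. They had differences of -0.01 ± 0.13, 0.10 ± 0.14 and 0.05 ± 0.16, and with proteins placed by structure the medians were 0.09 for the large and 0.07 for the small subunit. The related Mrps18b and Mrps18c, both small-subunit proteins, had differences of 0.13 ± 0.14 and -0.10 ± 0.16. Evolutionary origin gave medians of the same size, 0.10 for the 46 members with bacterial homologs and 0.08 for the 31 mitochondria-specific members.

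The medians of the members depended on single libraries. Relative to the WT control mean, the median over all members was 0.18 in WT control 1, -0.15 in WT control 2 and -0.02 in WT control 3, and 0.14 and 0.02 in the libraries labelled skmNrip1-/-. The range within WT control was therefore wider than the distance between the groups. WT control 1 was the highest of the 3 WT control libraries for 61 of 79 members, compared with 38.1% of all genes tested. Without WT control 1 the median difference of the members was 0.16, without WT control 2 it was 0.01, and without skmNrip1-/- 1 and skmNrip1-/- 2 it was 0.02 and 0.14. For the small subunit the sign turned without WT control 2 (-0.03) and without skmNrip1-/- 1 (-0.0029).

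**Figure D3:**
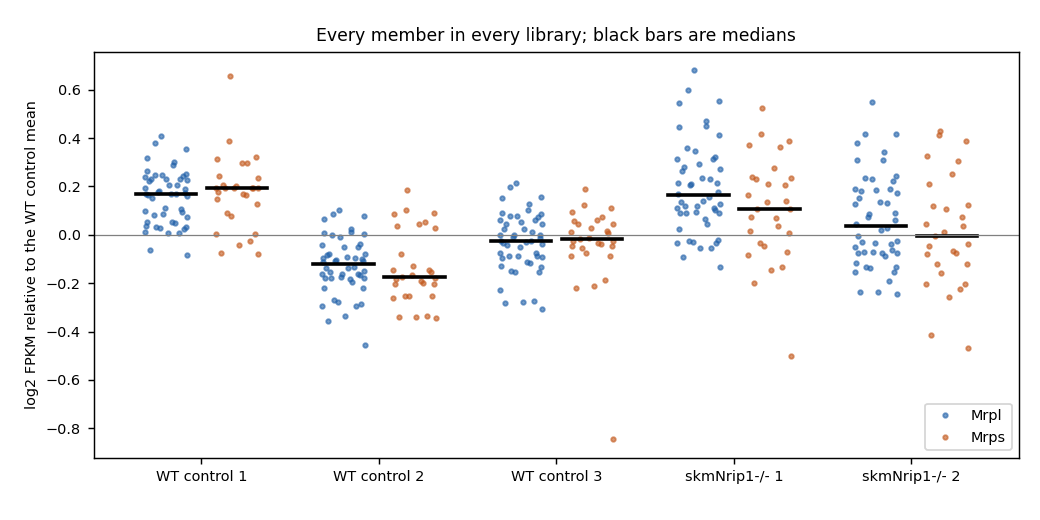
Log2 FPKM of every Mrpl (blue) and Mrps (orange) gene in each of the 5 libraries, relative to the gene's WT control mean, with the median of each subunit as a black bar. WT control 1 sits as high as skmNrip1-/- 1, at medians of 0.17 and 0.16 for the large subunit, and WT control 2 is the lowest library at -0.12.

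Members with long coding sequences held many of the higher values. Classes of coding length were chosen after the values were seen and are given as a description. All 15 members with 900 or more coding bases were above 0, with a median of 0.25, and 11 of them did not overlap and were higher (73.3%, compared with 16.7% of 8289 genes tested in that class). The 15 members include Mrpl1, Mrpl3, Mrps9, Mrps31, Mrps22 and also Mrpl37, Mrpl45, Mrps5 and Mrps27, whose differences were 0.23, 0.32, 0.27 and 0.25. The median of all genes of that class was 0.01. The 23 members with at least 600 and under 900 coding bases had a median of 0.07, and the 40 members under 600 bases had a median of 0.05, with 5 of 40 higher without overlap (12.5%, compared with 12.01% of 1648 genes tested in that class).

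Of the 3 classes, that of long members varied least when libraries were left out. Its median ranged from 0.23 to 0.29 without each library in turn, whereas that of members under 600 bases ranged from -0.07 to 0.14. After rescaling to TPM the long members had a median of -0.05, compared with -0.28 for all genes of the class. Above 0 were 6 of the 15 long members, compared with 1014 of 8138 genes tested of the class. Across the 78 coding members, Spearman's rho between coding length and the log2 difference was 0.50, compared with 0.05 across 11619 coding genes tested. Length also moved with the differences among the WT control libraries. Across the same members rho between coding length and the difference of WT control 1 and WT control 2 was -0.60, compared with -0.34 across all coding genes, while for the 2 libraries labelled skmNrip1-/- it was -0.05 across the members and -0.17 across all coding genes. These are correlations across genes, which are not independent replicates and share the same 5 libraries, and the part of this dependence in the differences between the groups was not tested.

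**Figure D4:**
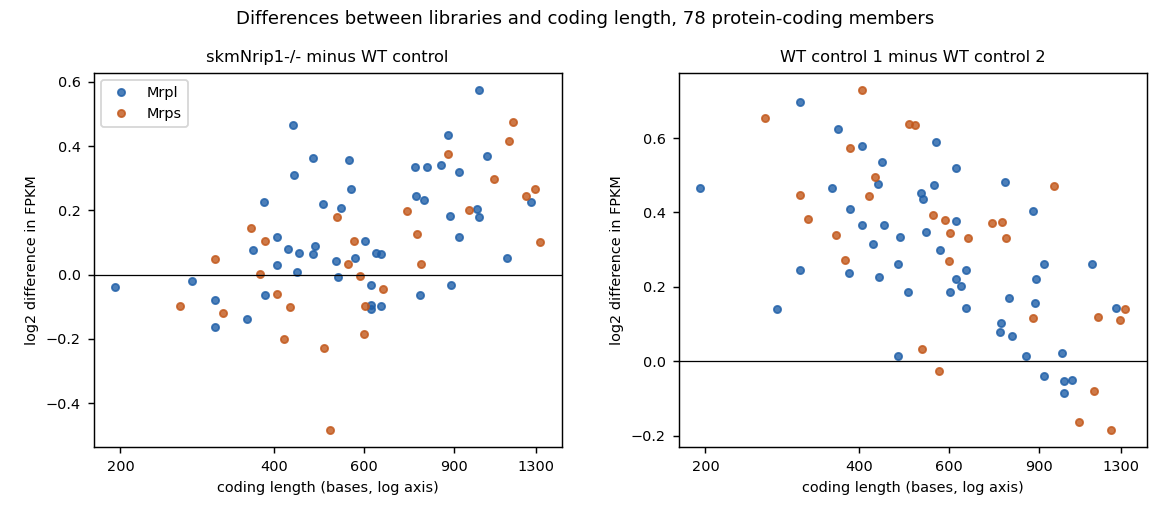
Log2 difference in FPKM against coding length in bases (log axis) for the 78 coding members, for the libraries labelled skmNrip1-/- minus WT control (left) and WT control 1 minus WT control 2 (right), with Mrpl in blue and Mrps in orange. The left differences are larger in long genes (rho 0.50) and the right differences are smaller in long genes (rho -0.60). After rescaling to TPM, 6 of the 15 members of 900 or more bases are above 0 on the left. Of all genes tested of that length, 1014 of 8138 are above 0 on that scale.

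Mrpl46 and Mrps11, a large- and a small-subunit gene that overlap on opposite strands of chromosome 7, were both above every WT control library. Mrpl46 was at 19.0, 18.8 and 18.9 FPKM in WT control and 25.8 and 22.2 FPKM in the libraries labelled skmNrip1-/-, and Mrps11 was at 18.1, 18.4 and 17.6 FPKM and at 19.4 and 19.4 FPKM. The log2 differences were 0.34 ± 0.11 and 0.11 ± 0.10 (adjusted p = 0.301 and 0.740), and reads of the overlapping bases cannot be told apart without strand. Members with a head-to-head gene had a median of 0.12 (n = 23) and the other coding members a median of 0.08 (n = 55). The means had the other order, at 0.09 and 0.11. Higher without overlap were 21.7% and 29.1%, compared with 15.8% of all genes tested. At an unadjusted p of 0.05 (limma), 1 (4.35%) and 11 (20%) were higher, compared with 6.57% of all genes tested. By promoter motif, the median was 0.18 for the 13 members with the NRF1 motif and 0.08 for the other members with a window. It was -0.01 for the 26 with the ETS-type motif and 0.18 for the others. For the 4 with the ERR motif it was -0.02 and for the others 0.10, and for the 8 with the YY1 motif 0.09 and for the others 0.10.

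The other parts of mitochondrial translation were described from lists of their genes, and none of these genes was called. The proteins of the mitochondrial ribosome with other symbols were mixed. Ptcd3, a pentatricopeptide-repeat protein of the small subunit, was at 25.4, 33.7 and 26.6 FPKM in WT control and at 41.5 and 41.6 FPKM in the libraries labelled skmNrip1-/- (log2 difference 0.55 ± 0.14, adjusted p = 0.234). Dap3, a GTP-binding small-subunit protein, Gadd45gip1, Aurkaip1 and Chchd1 had differences of 0.10 ± 0.12, 0.08 ± 0.13, -0.01 ± 0.18 and -0.11 ± 0.14, and their groups overlapped.

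The accessory factors sat above the ribosomal proteins on the deposited scale. Of 15 translation factors tested, 8 were higher (53.3%) and none lower at an unadjusted p of 0.05, compared with 6.57% and 5.33% of all genes tested, with a median of 0.29, from Slirp, an RNA-binding protein that stabilises mitochondrial mRNAs (-0.07 ± 0.24), to Mtif3, an initiation factor (0.52 ± 0.10, adjusted p = 0.129). Of 22 aminoacyl-tRNA synthetases and related enzymes, 6 were higher (27.3%) and none lower at that p, with a median of 0.29, from Gatc, a subunit of the glutamyl-tRNA amidotransferase (-0.09 ± 0.09), to the arginyl-tRNA synthetase Rars2 (0.52 ± 0.12, adjusted p = 0.190). Gars and Kars in this list also encode the cytosolic enzymes. Of 27 genes of assembly and rRNA modification, 10 were higher (37.04%) and none lower, with a median of 0.21, from the GTPase Mtg2 (-0.10 ± 0.14) to Mettl15, a methyltransferase of the small-subunit rRNA (0.66 ± 0.12, adjusted p = 0.110). Their coding sequences were long, with list medians of 1143 to 1664 bases compared with 582 bases for the members. The 55 genes of these 3 lists with 900 or more coding bases had a median of 0.28, beside 0.25 for the 15 members of that length. The 6 list genes with at least 600 and under 900 coding bases had a median of 0.27, beside 0.07 for 23 members. The 3 list genes under 600 bases had a median of -0.07, beside 0.05 for 40 members. These classes of 6 and 3 genes are small, and the part of length in the gap between lists and members was not tested. After rescaling to TPM the 3 list medians were -0.0016, -0.0013 and -0.08, compared with -0.29 for all genes tested.

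The mRNAs that the mitochondrial ribosome translates had the widest differences of the lists, although none was called. All 13 mtDNA-encoded mRNAs were above every WT control library (100%, compared with 15.8% of all genes tested). Their log2 differences ran from 0.44 ± 0.21 (mt-Cytb) to 0.85 ± 0.22 (mt-Nd3), with a median of 0.56. At an unadjusted p of 0.05, 8 were higher (61.5%, compared with 6.57% of all genes tested). These genes are all encoded by mtDNA and measured in the same 5 libraries, and they are not independent of each other. After rescaling to TPM all 13 remained above 0, with a median of 0.26. The mitochondrial rRNAs were not analysed here. The 35 nuclear subunits of ATP synthase and the cytochrome complexes had a median of 0.19, from Atp5g2 (0.04 ± 0.13) to Atp5a1, a catalytic-core subunit of ATP synthase (0.52 ± 0.12, adjusted p = 0.181), and 8 were higher (22.9%) and none lower at an unadjusted p of 0.05. After rescaling to TPM their median was -0.11. The 80 cytosolic ribosomal proteins, a comparison added after the values were seen, had a median of -0.05, with 62 below 0; without WT control 1 their median was 0.08.

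**Figure D5:**
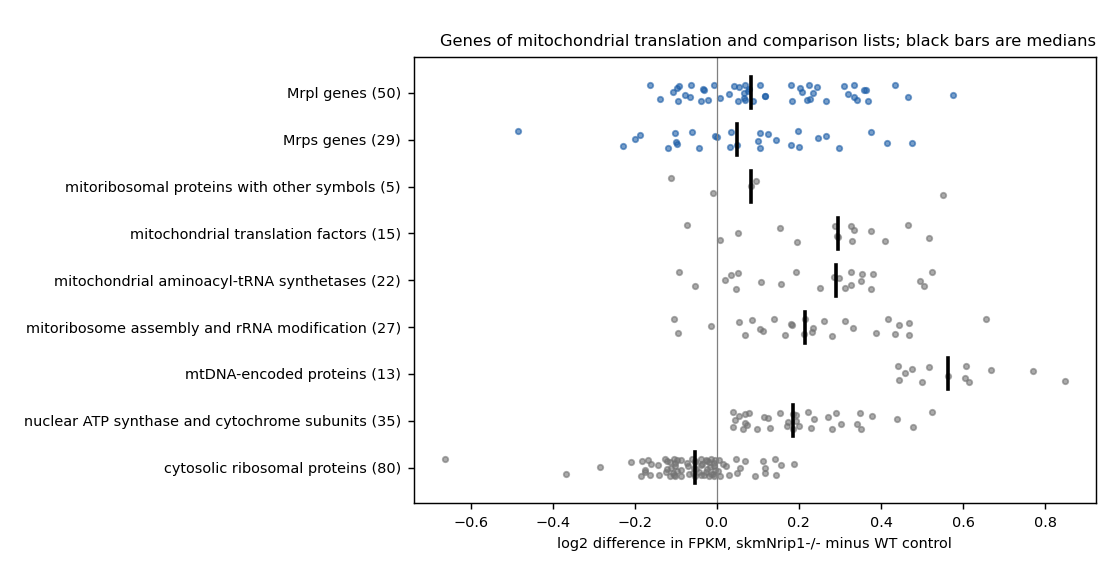
Log2 difference in FPKM (libraries labelled skmNrip1-/- minus WT control) of each gene tested (points) in the 2 sets of members, 6 lists of related mitochondrial genes and the cytosolic ribosomal proteins, with list medians as black bars and the number of genes in brackets. Medians are 0.08 for Mrpl, 0.05 for Mrps, 0.56 for mtDNA-encoded mRNAs and -0.05 for cytosolic ribosomal proteins; after rescaling to TPM the medians are -0.22, -0.25, 0.26 and -0.35.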

How the data were processed

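RNA was extracted from TA muscle of 5 mice and sequenced as paired-end libraries from a kit not described as strand-specific. Per the labels and methods, the authors quantified reads with Salmon 1.10.2 on mm10, summarised them with tximport and tested them with DESeq2 1.44.0, and deposited 1 table of FPKM values per gene; how FPKM were computed and the annotation release are not given in the sources used here. The median over genes of the ratio to the gene's geometric mean (median of ratios) was 1.0017 in every library. The deposited values were therefore already on a common median-of-ratios scale. On such a scale the median difference of all genes tested lies near 0 by construction. The deposited columns of the authors' own fold changes and adjusted p-values were not used. The methods legend gives 3 mice per group, and 2 libraries labelled skmNrip1-/- were analysed here.

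From the deposited FPKM values, log2(FPKM + 0.1) was tested with limma 3.58.1 (R 4.3.3; lmFit and eBayes with trend) on the 12148 genes averaging 0.5 FPKM or more (Benjamini-Hochberg adjustment); a call needed an adjusted p of 0.05 and a fold change of 1.2. Fold changes on this scale understate changes of low genes. Total counts are unknown. The fit was tested on simulated data. Gene structures came from GENCODE M21 (1 transcript per gene, APPRIS principal where given), copies from BLAST+ 2.17.0 and promoters from RefSeq. The numbers of replicates name different mice. The p-values rest on the spread of each gene between these libraries, drawn by eBayes towards a trend over all genes tested.

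The members and lists were chosen with earlier results of these data known. Named genes were the 4 highest and 4 lowest log2 differences and the 3 highest and 3 lowest levels in each subunit, members with a special role, mitochondrial ribosomal proteins with other symbols, and the extremes of each list; others named were chosen after their values were seen. Alternatives covered pseudocounts of 1 and 0.01, no minimum and a minimum of 1 FPKM, rescaling, other eBayes settings, a replicate block, each library left out, other thresholds, subunits by structure and a minimum of 5 FPKM for members.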

Additional observations from a re-analysis of the deposited data

How the results depend on the processing

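No member was called under any alternative run. Leaving out 1 library left 4 libraries, 1 of them alone in its group in 2 of the cases and then assumed to vary like the other group. With each library left out in turn, 2 to 17 members were higher and 0 to 5 lower at an unadjusted p of 0.05, and 6 to 55 genes of all tested were called higher and 3 to 16 lower. The Nrip1 difference was 1.74 to 2.09 and was no longer called without WT control 3 or without either library labelled skmNrip1-/-. The median log2 difference was 0.02 to 0.17 for the large subunit, -0.03 to 0.13 for the small subunit and 0.01 to 0.16 for all members.

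Rescaling to TPM moved the median of all genes tested by -0.29 and left 1492 of 11913 genes tested above 0. It gave medians of -0.22 for the large subunit, -0.25 for the small subunit and -0.22 for all members, with 0 members higher and 19 lower at an unadjusted p of 0.05 and 30 genes called higher and 63 lower, against 45 and 10. The sign turned for 39 of the 79 members and, of the genes named here, for Mrpl37 (-0.072), Mrps27 (-0.052), Mrps5 (-0.032), Mrps11 (-0.19), Mrpl44 (-0.094), Mrpl39 (-0.12), Mrpl12 (-0.19), Mrps18b (-0.17), Dap3 (-0.20), Mrps30 (-0.20), Mrpl42 (-0.22), Gadd45gip1 (-0.21), Mrpl11 (-0.25), Mrps36 (-0.25), Atp5g2 (-0.26) and Mrps35 (-0.10). TPM over nuclear genes gave 20 members higher at an unadjusted p of 0.05 and turned Slirp (0.0017), Mrps34 (0.031), Aurkaip1 (0.067) and Mrps18a (0.071). Their construction, with the mtDNA share in or out of the sum, sets these shifts.

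Without the trend in eBayes, 0 members were lower at an unadjusted p of 0.05, 22 genes were called higher and 3 lower, and Nrip1 (1.94) was not called. An adjusted p of 0.01 left 14 genes higher and 3 lower. The cause was not tested. The replicate block, for numbers that pair no mice (deviation correlations 0.0647 and 0.0952), used the 2 shared numbers and gave 7 members higher and 0 lower at an unadjusted p of 0.05, 18 genes called higher and 4 lower, Nrip1 at 1.98 and not called, and turned Mrps35 (-0.22), Aurkaip1 (0.034) and Mrps18a (0.0086).

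The sign of these genes depended on 1 library, with ranges over the libraries left out of -0.23 to 0.020 for Mrps18c, -0.27 to 0.061 for Mrps21, -0.27 to 0.010 for Mrpl23-ps1, -0.25 to 0.16 for Slirp, -0.16 to 0.068 for Mrps34, -0.17 to 0.11 for Aurkaip1, -0.11 to 0.083 for Mrps18a, -0.0058 to 0.15 for Gadd45gip1, -0.035 to 0.15 for Mrpl11, -0.077 to 0.17 for Mrps36, -0.061 to 0.10 for Atp5g2, -0.22 to 0.53 for Mrps35, -0.0029 to 0.21 for Mrps30, -0.41 to 0.015 for Mrps12, -0.24 to 0.015 for Chchd1, -0.24 to 0.024 for Mrpl58 and -0.29 to 0.081 for Mtg2. The other pseudocounts, FPKM minimums, the median of ratios, robust eBayes, no fold change threshold, subunits by structure and the minimum of 5 FPKM turned the sign of no member and left no member called. Most of these runs could not turn a sign. The median of ratios was 1.0017 in every library, so that rescaling applied a common factor. With a lowest member mean of 5.38 FPKM, each minimum kept every member. Robust eBayes, the fold change threshold and the placement by structure do not enter a member's log2 difference. The runs listed gave 38 to 55 genes called higher and 7 to 11 lower at these thresholds. Without a minimum, 13 members were higher at an unadjusted p of 0.05, the added one being Mrps27. Depth in reads is unknown, and 2 libraries in 1 group leave wide intervals, with a median half-width of 0.33 on the log2 scale for the members.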
